A study of Mus musculus with 7 samples.

Results

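Antioxidant and redox genes were examined in aged Tregs, the CD4+CD25+ splenocytes of 18-month-old mice, against young Tregs from 8-week-old mice. The set held 38 genes chosen by name: the redox-sensing transcription factor Nfe2l2 (Nrf2) and its inhibitor Keap1, the enzymes that make, use and regenerate glutathione and thioredoxin, the superoxide dismutases and catalase, and the enzymes that supply NADPH. All 38 were among the 25469 genes of the deposited expression table and among the 13904 genes tested. The study sequenced 3 aged and 4 young libraries of mice labelled WT, with no treatment listed, each labelled as a biological replicate, and the methods describe male C57BL/6 animals. Whether spleens were pooled is not given in the sources used here. Cells were isolated with a magnetic Treg kit rather than by flow sorting, so CD4+CD25+ describes a selection on surface protein and can include recently activated CD4+ T cells.

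Cells detoxify peroxide along parallel branches. Glutathione peroxidases and peroxiredoxins reduce peroxides, glutathione reductase and thioredoxin reductases restore the spent thiols, and both reductases draw their electrons from NADPH. Nrf2 is held in the cytosol by Keap1, escapes it when cysteines of Keap1 are oxidised, and then binds antioxidant response elements with small Maf proteins. In T cells thiol status is known to shape receptor signalling and proliferation, and Tregs are known to be relatively resistant to oxidative stress. Red cells and their precursors are known for very high levels of catalase, Gpx1 and Prdx2.

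The libraries held 10734234 to 13649310 counts on genes, and 3 counts, taken here as the detection limit, corresponded to 0.22 to 0.279 CPM, in which the counts of each library are scaled to a common total. Counts of the members ran from 17 to 33725 in a library, so each member was above that limit in each library. The 7 genes listed for Tregs, of which Cd4 and Cd3e mark T cells at large, were detected in every library, with summed CPM of 2734 to 3303 in aged and 2188 to 3312 in young libraries; Foxp3 was at 622, 478 and 447 CPM in aged and 477, 518, 394 and 396 CPM in young libraries. Cd3e was higher in aged libraries at an adjusted p of 0.0301 in edgeR (log2 fold change 0.46), and Il2ra, which encodes the CD25 used for isolation, was at 481, 333 and 327 CPM in aged and 626, 684, 536 and 471 CPM in young libraries (-0.61, adjusted p = 0.0588). Transcripts of other cells were also present. Haemoglobin genes took 1.27%, 13.1% and 7.60% of counts in the aged libraries and 10.4%, 1.24%, 6.15% and 5.91% in the young, and summed neutrophil markers were at 5767, 2049 and 727 CPM in aged against 668, 333, 1066 and 475 CPM in young libraries, with 4 of 12 called higher (here and below, called means an adjusted p under 0.05 in edgeR over all 13904 genes). Mitochondrially encoded transcripts took 5.08% to 10.7% of counts in aged and 2.63% to 3.23% in young libraries and did not overlap. Summed platelet markers (21.1 to 41.5 CPM in aged, 8.62 to 17.99 CPM in young libraries, 2 of 5 tested called higher) and summed NK cell markers (19.8 to 33.4 and 34.3 to 60.3 CPM, 1 of 5 called lower) did not overlap either. Of 13 monocyte or macrophage markers 4 were called lower in aged libraries (sums 456 to 618 and 584 to 677 CPM), and of 8 dendritic cell markers 3 were called lower and 1 higher (sums 45.4 to 66.7 and 63.1 to 82.7 CPM). Of 7 plasma cell markers 1 was called higher (Prdm1, log2 fold change 1.196, adjusted p = 0.0326) and of 2 tested mast cell or basophil markers 1 lower (Cpa3, log2 fold change -1.28, adjusted p = 0.0461), with overlapping sums. All values below are CPM on the TMM scale (library totals adjusted for their composition) in the order of libraries 1 to 3 (aged) and 1 to 4 (young), unless another scale is named. Gene positions are those of GENCODE M21 on GRCm38.

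Promoter sequence is shown for the members with the largest called rises in aged Tregs. The stretches were read from RefSeq windows on GRCm38.p6, which reach from 250 bases before to 50 bases after an annotated start site and were present for 33 of the 38 members. Upstream of Glrx (plus strand, chr13:75839635-75839884) capitals mark the letters TGANTCA, which AP-1 factors are known to bind. Upstream of Srxn1 (plus strand, chr2:152105274-152105523) capitals mark TGANTCA and TGAGNNNGC, the G form of the antioxidant response element, on either strand. The first marked stretch of Srxn1 is a match of TGAGNNNGC on the other strand, which reads GCNNNCTCA. The match nearest to the start site satisfies both sets of letters.
Glrx: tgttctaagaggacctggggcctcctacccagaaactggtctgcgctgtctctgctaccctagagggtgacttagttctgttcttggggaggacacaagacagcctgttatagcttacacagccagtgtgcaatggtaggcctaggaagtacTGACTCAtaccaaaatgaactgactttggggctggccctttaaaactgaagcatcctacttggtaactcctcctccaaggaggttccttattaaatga
Srxn1: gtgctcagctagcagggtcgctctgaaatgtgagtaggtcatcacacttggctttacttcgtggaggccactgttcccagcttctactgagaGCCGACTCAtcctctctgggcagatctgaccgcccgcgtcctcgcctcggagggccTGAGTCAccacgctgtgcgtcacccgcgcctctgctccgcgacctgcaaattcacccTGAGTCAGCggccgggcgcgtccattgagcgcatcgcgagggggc

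The antioxidant response element core TGACNNNGC, searched on both strands, lay in the windows of 9 of the 33 members (27.3%), namely Nfe2l2, Srxn1, Gclm, Prdx1, Pgd, Mgst1, Txnrd1, Sod1 and G6pdx, and in 14.0% of the 27025 genes with a window. By windows, the core was in 9 of the 45 windows of members and in 12.4% of all 32851. The 5 stretches below belong to the sensor gene, to a called rise, to a gene of glutathione synthesis, to a peroxiredoxin and to a reductase, with the core in capitals and 10 flanking bases. They are printed on the strand of the gene, so that a core on the other strand reads GCNNNGTCA.
Nfe2l2 (minus strand, chr2:75704885-75704913): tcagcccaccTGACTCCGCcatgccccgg
Srxn1 (plus strand, chr2:152105542-152105570): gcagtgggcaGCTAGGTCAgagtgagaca
Gclm (plus strand, chr3:122245413-122245441): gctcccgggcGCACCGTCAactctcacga
Prdx1 (plus strand, chr4:116685456-116685484): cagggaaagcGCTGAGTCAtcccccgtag
Txnrd1 (plus strand, chr10:82859104-82859132): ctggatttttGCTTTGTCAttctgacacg

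Of these 5 genes, Srxn1 alone was called between ages, and log2 fold changes of the 9 genes with the core ran from -0.33 in Txnrd1 to 1.22 in Srxn1. TGAGNNNGC was in 5 of 33 members (15.2%; Idh1, Srxn1, Prdx1, Idh2 and Txn2) and in 19.8% of all genes. TGANTCA was in 4 of 33 members (12.1%; Srxn1, Glrx, Mgst2 and Prdx1) and in 8.97% of all genes, and 1 of the matches in Prdx1 shares bases with its response element core. The GATA letters AGATAA or TGATAA were in 3 of 33 members (9.09%; Keap1, Gpx4 and Glrx2) and in 20.96% of all genes. These are matches of letters in a window, with no binding measured.

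Against this layout the question was which members differed between aged and young Tregs. Of the 38 members, 5 were called higher in aged Tregs (13.2%), namely Srxn1, Glrx, Gsr, Txn1 and Prdx5, and 1 was called lower (2.63%), Idh2. The share of all tested genes called was 9.8% higher and 6.94% lower. In this edgeR fit the members' shares were thus close to those of the background, somewhat above for higher and below for lower. With DESeq2, an alternative test, 5 members were again called higher (13.2%), against a larger 14.3% of all genes. It called 3 members lower, against 13.1% of all genes, so being above the background for higher depended on the fit. The 32 other members did not pass, and 10 members in all had an unadjusted p under 0.05 in edgeR. The log2 fold change was positive in 28 members and negative in 10, with a median of 0.14 against 0.02 over all tested genes, and 17 of the 38 changed sign in at least 1 of 17 other settings, none of the called members among them. In bulk libraries such as these, fewer cells of a type and less RNA per cell cannot be told apart. The mitochondrial share, Cd3e and some of the listed markers of neutrophils, platelets, NK cells, monocytes or macrophages and dendritic cells given above moved with age. They moved beside each difference that follows. Of the plasma cell and the mast cell or basophil markers only Prdm1 and Cpa3 were called, with overlapping sums. The part of all these transcripts in the differences was not tested.

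**Figure D1:**
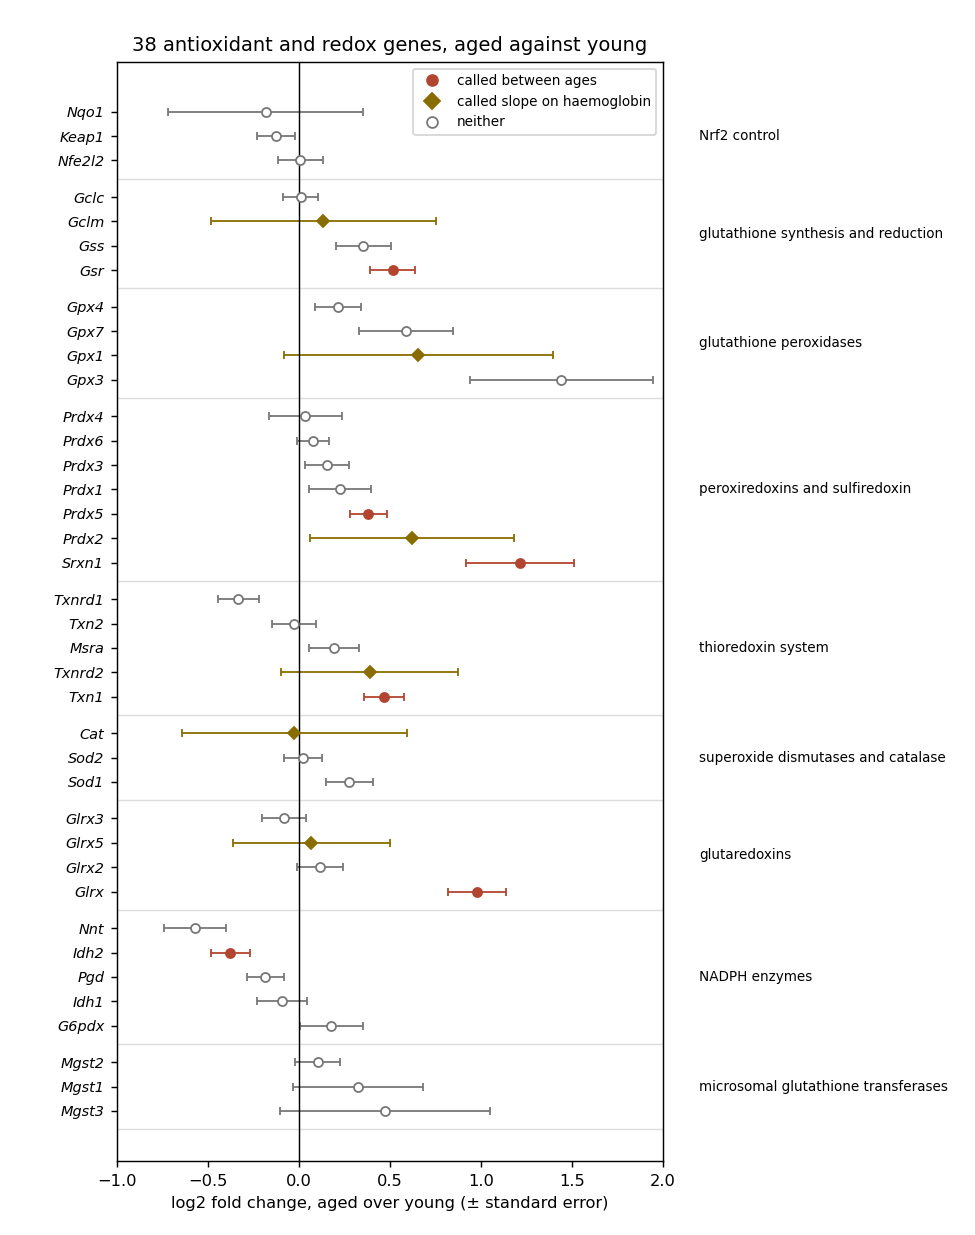
Log2 fold change of CPM, aged over young, for each of the 38 members (x axis, with the standard error as bars), grouped by role. Filled circles mark the 6 members called between ages, diamonds the 6 members whose level followed the haemoglobin share; Srxn1 and Glrx lie near 1 and Idh2 and Nnt lie to the left of 0.

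Transcripts of the sensor arm did not differ detectably between ages, and Nrf2 protein and its activity were not measured. Nfe2l2 was at 41.8, 41.9 and 42.1 CPM in aged and 40.1, 33.9, 46.1 and 46.7 CPM in young Tregs. The aged libraries sat inside the young range, and the log2 fold change was 0.0077 (SE 0.124, adjusted p = 0.976). Keap1, which targets Nrf2 for degradation, was at 39.3, 37.3 and 35.8 CPM in aged and 37.8, 37.8, 41.2 and 46.7 CPM in young Tregs, with a log2 fold change of -0.13 (SE 0.106, adjusted p = 0.453). Of the exon length of Keap1, 10.9% overlaps another annotated gene. Nqo1, a quinone reductase and common readout of Nrf2 activity, was low at 3.49, 7.55 and 4.12 CPM in aged and 5.68, 1.40, 7.82 and 8.03 CPM in young Tregs. Young library 2, at 1.40 CPM, was the lowest of the 7, and the groups overlapped (log2 fold change -0.18, adjusted p = 0.85).

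Glutathione reductase was the called member of the glutathione branch. Gsr (ENSMUSG00000031584, chr8:33652523-33698163, plus strand), which reduces oxidised glutathione with NADPH, was at 59.6, 44.9 and 50.9 CPM in aged and 35.3, 37.98, 39.8 and 32.04 CPM in young Tregs. Every aged library was above every young library. Mean levels were 51.8 ± 7.38 CPM in aged (SD, n = 3) and 36.3 ± 3.38 CPM in young Tregs (SD, n = 4), and the rise was 0.51 on the log2 scale (SE 0.124, adjusted p = 0.0259). Aged library 1, which had the highest level of Gsr, also had the highest sum of neutrophil markers, and without it the log2 fold change was 0.40 (adjusted p = 0.0494); the part of neutrophil transcripts was not tested. The call held in 4 of 7 fits without a library, with adjusted p of 0.0213 to 0.0719 over the 7, and not with trends of GC content and gene length removed (0.41, adjusted p = 0.0806). Gss, which joins glycine to the dipeptide in the last step of glutathione synthesis, was at 10.8, 12.5 and 9.17 CPM in aged and 8.39, 8.41, 8.29 and 8.82 CPM in young Tregs. Its groups did not overlap, but the difference of 0.35 did not pass (SE 0.152, adjusted p = 0.147). Of the exon length of Gss, 15.4% overlaps Acss2, Gssos1 and Gssos2. Gclc, the catalytic subunit of the enzyme for the rate-limiting step, was nearly level over the libraries at 66.3 to 80.8 CPM (log2 fold change 0.0087, adjusted p = 0.963). Its modifier subunit Gclm ranged over 27.1 to 206 CPM and is described with the haemoglobin share.

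The largest called rise was in the peroxiredoxin branch. Srxn1 (ENSMUSG00000032802, chr2:152105516-152111376, plus strand), sulfiredoxin, which restores over-oxidised peroxiredoxins, was at 6.99, 10.3 and 13.8 CPM in aged and 5.59, 2.94, 3.95 and 5.38 CPM in young Tregs. The lowest aged library was above the highest young library, with means of 10.4 ± 3.43 and 4.47 ± 1.25 CPM (SD, n = 3 and 4). The log2 fold change was 1.22 (SE 0.296, adjusted p = 0.0271), and Srxn1 was the 1 called member whose log2 fold change was at least 1. Its counts were 42 to 148 in a library, and the call held in 3 of the 7 fits that leave out 1 library, with adjusted p of 0.0128 to 0.104.

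Prdx5 (ENSMUSG00000024953, chr19:6906697-6910106, minus strand), a peroxiredoxin of mitochondria, peroxisomes and cytosol, was at 83, 76.7 and 81.6 CPM in aged and 53.1, 68.8, 64.8 and 60.3 CPM in young Tregs. The groups did not overlap, and the log2 fold change was 0.38 (SE 0.104, adjusted p = 0.0394). The call held in 1 of 7 fits without a library, with adjusted p of 0.031 to 0.102, and the change was 0.25 (adjusted p = 0.169) once trends with GC content and gene length were removed. Of its exons, 19.1% of the length overlaps the neighbouring gene Trmt112. Prdx1, the abundant cytosolic peroxiredoxin, was at 197, 224 and 285 CPM in aged and 164, 242, 217 and 181 CPM in young Tregs, and the groups overlapped (log2 fold change 0.23, adjusted p = 0.407; 0.068 without aged library 3). The mitochondrial Prdx3, the Prdx4 of the endoplasmic reticulum and Prdx6, which uses glutathione, had log2 fold changes of 0.15, 0.03 and 0.08 with overlapping groups. Prdx6 was the steadiest member, at 91.6 to 109 CPM over the 7 libraries.

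**Figure D2:**
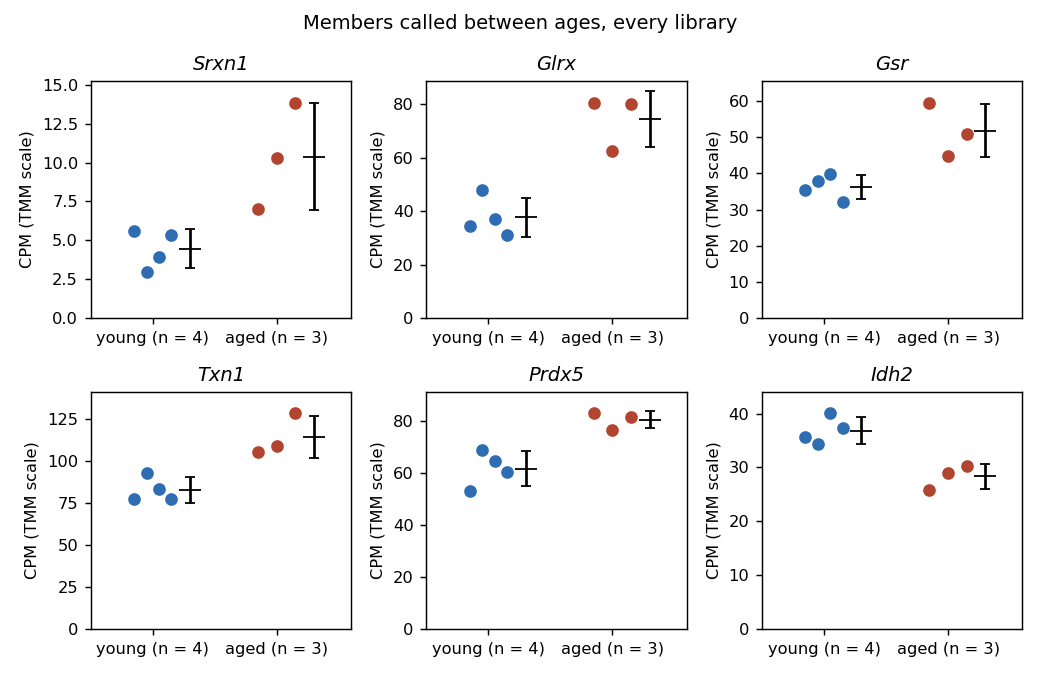
CPM on the TMM scale (y axis from 0) in each of the 4 young and 3 aged libraries (x axis) for the 6 members called between ages, with the mean and SD beside the points. In each panel the points of the ages do not overlap; Idh2 is the 1 member that is lower in aged libraries.

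In the thioredoxin branch the substrate and its cytosolic reductase had log2 fold changes of opposite sign. Txn1 (ENSMUSG00000028367, chr4:57943373-57956411, minus strand), cytosolic thioredoxin, was at 106, 109 and 129 CPM in aged and 77.3, 93.3, 83.6 and 77.2 CPM in young Tregs. Every aged library was above every young one, and the log2 fold change was 0.47 (SE 0.109, adjusted p = 0.0239). The call held in 3 of 7 fits without a library, with adjusted p of 0.0198 to 0.0778, and the change was 0.24 (adjusted p = 0.0725) once trends with GC content and gene length were removed. Txnrd1, the reductase that returns electrons to Txn1, was at 68.1, 52.2 and 53.4 CPM in aged and 71.8, 74.5, 76.8 and 69.1 CPM in young Tregs. All aged libraries were below the young ones, and the difference of -0.33 did not pass (SE 0.112, adjusted p = 0.0758). It passed without aged library 1 (-0.47, adjusted p = 0.0101) and with DESeq2 (-0.34, adjusted p = 0.0164). Mitochondrial Txn2 (-0.03) and the methionine sulfoxide reductase Msra (0.19) had log2 fold changes near 0 with overlapping groups, at adjusted p of 0.903 and 0.367. The mitochondrial reductase Txnrd2 is described with the haemoglobin share.

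Glrx (ENSMUSG00000021591, chr13:75839868-75850154, plus strand), the cytosolic glutaredoxin that removes glutathione from modified cysteines, gave the firmest difference between ages. It was at 80.6, 62.3 and 80.2 CPM in aged and 34.5, 48.1, 37.2 and 31.1 CPM in young Tregs. The lowest aged library was well above the highest young library, with means of 74.4 ± 10.4 and 37.7 ± 7.33 CPM (SD, n = 3 and 4), a 1.97-fold level. The log2 fold change was 0.98 (SE 0.161, adjusted p = 0.00616). The call held without any 1 of the 7 libraries, with log2 fold changes of 0.90 to 1.12 and adjusted p of 0.00286 to 0.0265. It was lost in edgeR with a term for the replicate numbers of the labels, the replicate block (0.90, adjusted p = 0.0837). With that block and GC content and length trends removed it was lost too (0.86, adjusted p = 0.0939). The relatives of Glrx were closer to level: mitochondrial Glrx2 was at 19.6, 24.3 and 23.02 CPM in aged and 18.96, 21.4, 22.8 and 19.1 CPM in young Tregs, and Glrx3, which handles iron-sulfur clusters, was at 81.8, 74.3 and 92.7 CPM and 79.4, 103, 86.2 and 82.6 CPM. In both genes the ages overlapped, with log2 fold changes of 0.12 and -0.08 and adjusted p of 0.573 and 0.684. Whether the change in Glrx differed from theirs was not tested.

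Among the enzymes that supply NADPH, 4 of 5 had a negative log2 fold change. Idh2 (ENSMUSG00000030541, chr7:80094846-80115392, minus strand), the mitochondrial NADP-dependent isocitrate dehydrogenase, was at 25.8, 28.9 and 30.3 CPM in aged and 35.7, 34.3, 40.04 and 37.3 CPM in young Tregs. Every aged library was below every young one, and Idh2 fell by 0.38 on the log2 scale (SE 0.106, adjusted p = 0.0432). The call was lost in each of the 7 fits without a library, with log2 fold changes of -0.43 to -0.32 and adjusted p of 0.0528 to 0.118. Nnt, the transhydrogenase of the inner mitochondrial membrane, was at 30.7, 20.9 and 30.3 CPM in aged and 45.5, 33.2, 38.8 and 44.8 CPM in young Tregs. The groups did not overlap, and the difference of -0.57 was just outside the threshold (SE 0.171, adjusted p = 0.0537); it passed in 6 of 17 other settings, DESeq2 among them (-0.58, adjusted p = 0.00417). Of the exon length of Nnt, 47.4% overlaps a further gene model of the same name in GENCODE M21. The C57BL/6J substrain is known to carry a deletion within Nnt, and the substrain is not given in the labels or in the study's methods.

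The cytosolic NADPH enzymes were closer to level. Idh1 had a log2 fold change of -0.09 (adjusted p = 0.689). Pgd, of the pentose phosphate pathway, was at 91.5, 75.3 and 73.1 CPM in aged and 85.8, 91.2, 92.8 and 93.97 CPM in young Tregs (-0.19, SE 0.102, adjusted p = 0.246). It passed in 1 other setting, without aged library 1 (-0.30, adjusted p = 0.0430). G6pdx, which commits glucose to that pathway, was at 88.6, 60.02 and 50.2 CPM in aged and 58.03, 60.96, 58.2 and 57.4 CPM in young Tregs. Aged library 1 was the highest of the 7; the age difference of 0.18 did not pass (adjusted p = 0.524) and turned to -0.09 without that library. Of the exon length of G6pdx, 13.6% overlaps Ikbkg.

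None of 4 glutathione peroxidases was called by edgeR, DESeq2 or limma voom, and 1, Gpx3, had an unadjusted p under 0.05. Gpx3, the secreted form, had the largest log2 fold change of all members, 1.44 (SE 0.505, adjusted p = 0.0861), from 8.30, 24.5 and 5.99 CPM in aged and 4.37, 7.71, 3.00 and 3.80 CPM in young Tregs. Aged library 2 stood far above the rest, and without it the log2 fold change was 0.59 (adjusted p = 0.333). Gpx4, which reduces lipid peroxides and protects from ferroptosis, was at 123, 165 and 162 CPM in aged and 117, 129, 133 and 139 CPM in young Tregs. Its groups overlapped (log2 fold change 0.21, SE 0.125, adjusted p = 0.272). It passed in 1 other setting, without aged library 1 (0.34, adjusted p = 0.0456). Gpx7, of the endoplasmic reticulum, had the lowest level per kilobase of exon in 4 of 7 libraries and was at 2.10, 2.11 and 2.71 CPM in aged and 1.49, 1.54, 1.90 and 1.22 CPM in young Tregs; the groups did not overlap and the difference of 0.59 did not pass (adjusted p = 0.155).

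The remaining enzymes overlapped between ages. Sod1, the cytosolic copper-zinc superoxide dismutase, was at 145, 177 and 199 CPM in aged and 126, 158, 144 and 145 CPM in young Tregs (0.28, SE 0.13, adjusted p = 0.18). The mitochondrial Sod2 was within 37.2 to 46.98 CPM in all 7 libraries (0.02, adjusted p = 0.917). The microsomal glutathione transferases Mgst1, Mgst2 and Mgst3 had log2 fold changes of 0.32, 0.10 and 0.47, at adjusted p of 0.574, 0.607 and 0.616. Mgst1 was highest in aged library 1 at 8.82 CPM, and Mgst3 was at 4.48 CPM in young library 2 against 20.97 to 48.7 CPM elsewhere. The difference in Mgst3 was 0.12 without young library 2 and 0.10 without aged library 2.

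Counted over all members, 7 had every aged library above every young one (18.4%; Gsr, Gss, Gpx7, Prdx5, Txn1, Srxn1 and Glrx), and the share of all tested genes with this order was 15.5%. In 3 members every aged library was below every young one (7.89%; Txnrd1, Nnt and Idh2), against 14.4% of all tested genes. An exact two-sided permutation test of 3 against 4 libraries cannot give a p below 0.0571, the value of each of these 10 members, so the fit over all genes carries the test.

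The widest spread among members was not between ages. The question here was whether member levels followed the haemoglobin share, added as a term to the model after these data had been seen. The share itself was taken from the same libraries and is part of the same total. At an adjusted p under 0.05, 6 of 38 members had a positive slope (15.8%), namely Gpx1, Txnrd2, Cat, Prdx2, Gclm and Glrx5, and the share of all tested genes with a positive slope was 2.39%. No member had a called negative slope in edgeR, against 0.194% of all tested genes, and 2 members had a negative slope at an unadjusted p under 0.05. The same 6 members were called under each alternative scaling, with GC content and length trends removed, and without each library in turn. Of 10 matched erythroid markers 9 had a called positive slope, Car1 being the exception. Of these 10, 4 are haemoglobin genes and part of the share itself, so their slope was fixed in advance, and of the 6 others 5 had a called positive slope. The summed erythroid markers ran from 13620 to 163453 CPM in aged and from 12745 to 121361 CPM in young libraries, and without the haemoglobin genes from 1422 to 15521 and from 905 to 10773 CPM. Whether these transcripts came from red cell precursors or from Tregs was not tested.

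Gpx1, the main cytosolic glutathione peroxidase, was at 320.4, 3396 and 1185 CPM in aged and 1622, 292, 1037 and 1201 CPM in young Tregs. Aged library 2 and young library 1, with the highest haemoglobin share of each age, were the highest of each age, and aged library 1 and young library 2 the lowest. The level rose by 0.89 on the log2 scale per doubling of the haemoglobin share (SE 0.0835, adjusted p = 0.000785). The difference between ages was 0.65 without that term (adjusted p = 0.584) and 0.25 with it (adjusted p = 0.402). Prdx2, the peroxiredoxin abundant in red cells, was at 218, 1086 and 472 CPM in aged and 505, 135, 425 and 476 CPM in young Tregs. The order of libraries by haemoglobin share was kept at both extremes, and the slope was 0.65 (SE 0.076, adjusted p = 0.00244). Its age difference was 0.62 without and 0.44 with the term (adjusted p = 0.124), and 11.5% of its exon length overlaps Junb and Rnaseh2a.

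Cat, catalase, was at 91.6, 679.9 and 256 CPM in aged and 532, 148, 339 and 376 CPM in young Tregs. Its slope was 0.70 (SE 0.0819, adjusted p = 0.00238), and its age difference -0.03 without and -0.37 with the term (adjusted p = 0.235). Gclm, the modifier subunit of glutamate-cysteine ligase, was at 40.01, 206 and 80.2 CPM in aged and 142, 27.1, 107 and 120.2 CPM in young Tregs, with a slope of 0.71 (SE 0.0887, adjusted p = 0.00311). The partner Gclc had a slope of 0.04 (SE 0.037, adjusted p = 0.721), and its levels spanned a narrow range (66.3 to 80.8 CPM), the lowest in young library 2. The difference between these slopes was not tested.

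Txnrd2, the mitochondrial thioredoxin reductase, was at 33.3, 131 and 67 CPM in aged and 85.3, 24.8, 57.5 and 67.4 CPM in young Tregs, with a slope of 0.56 (SE 0.0565, adjusted p = 0.00121). Glrx5, which assembles iron-sulfur clusters and is needed for haem synthesis, was at 40.2, 131 and 68.1 CPM in aged and 97.8, 35.5, 79.3 and 92.1 CPM in young Tregs, with a slope of 0.48 (SE 0.0612, adjusted p = 0.00363). In both the library with the least haemoglobin of each age was the lowest and that with the most the highest. The age differences with the haemoglobin term were 0.26 for Txnrd2 and -0.03 for Glrx5, at adjusted p of 0.218 and 0.895.

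**Figure D3:**
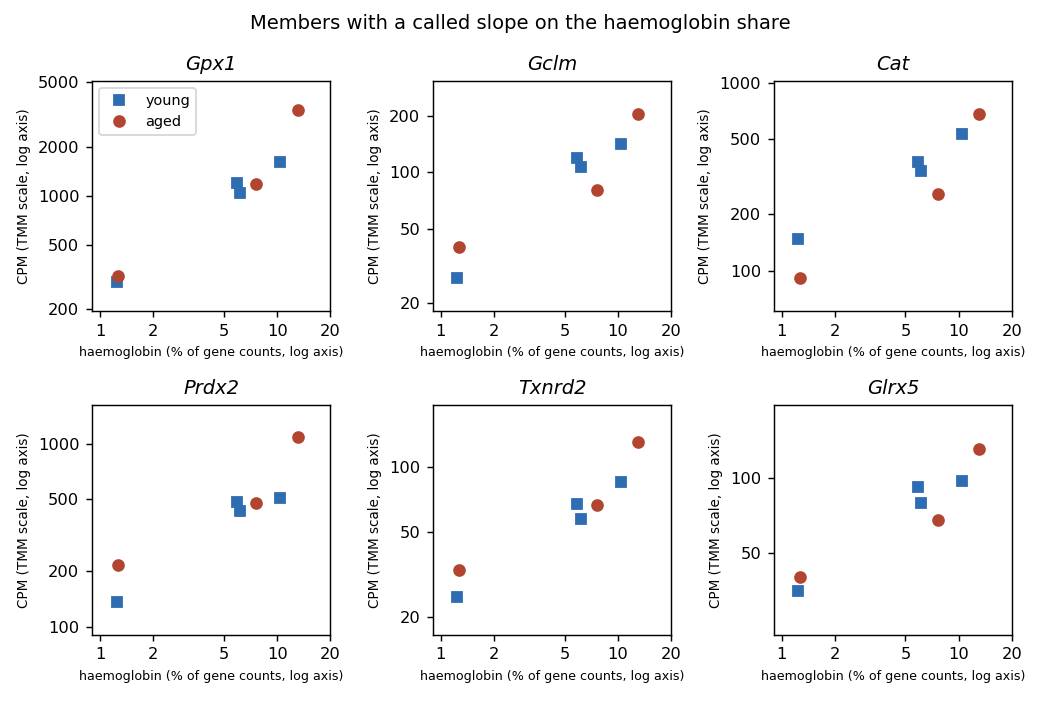
CPM on the TMM scale (y axis, log) against the percent of gene counts on haemoglobin genes (x axis, log) for Gpx1, Gclm, Cat, Prdx2, Txnrd2 and Glrx5, with 1 point per library. Circles are the 3 aged and squares the 4 young libraries; the 2 libraries near 1.2% haemoglobin, of which 1 is aged and 1 young, are the lowest in each panel.

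The highest library was 3.70 to 11.6 times the lowest in these 6 members. In the 32 others this ratio had a median of 1.53, with Mgst3 the widest at 10.9, and over all tested genes the median was 1.74. None of the 6 was called between ages, with or without the haemoglobin term. The 6 members called between ages remained called with the term, at log2 fold changes of 1.19 (Srxn1), 1.00 (Glrx), 0.51 (Gsr), 0.47 (Txn1), 0.39 (Prdx5) and -0.38 (Idh2). Txnrd1 was called in addition, at -0.34 (SE 0.0968, adjusted p = 0.0425).

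**Figure D4:**
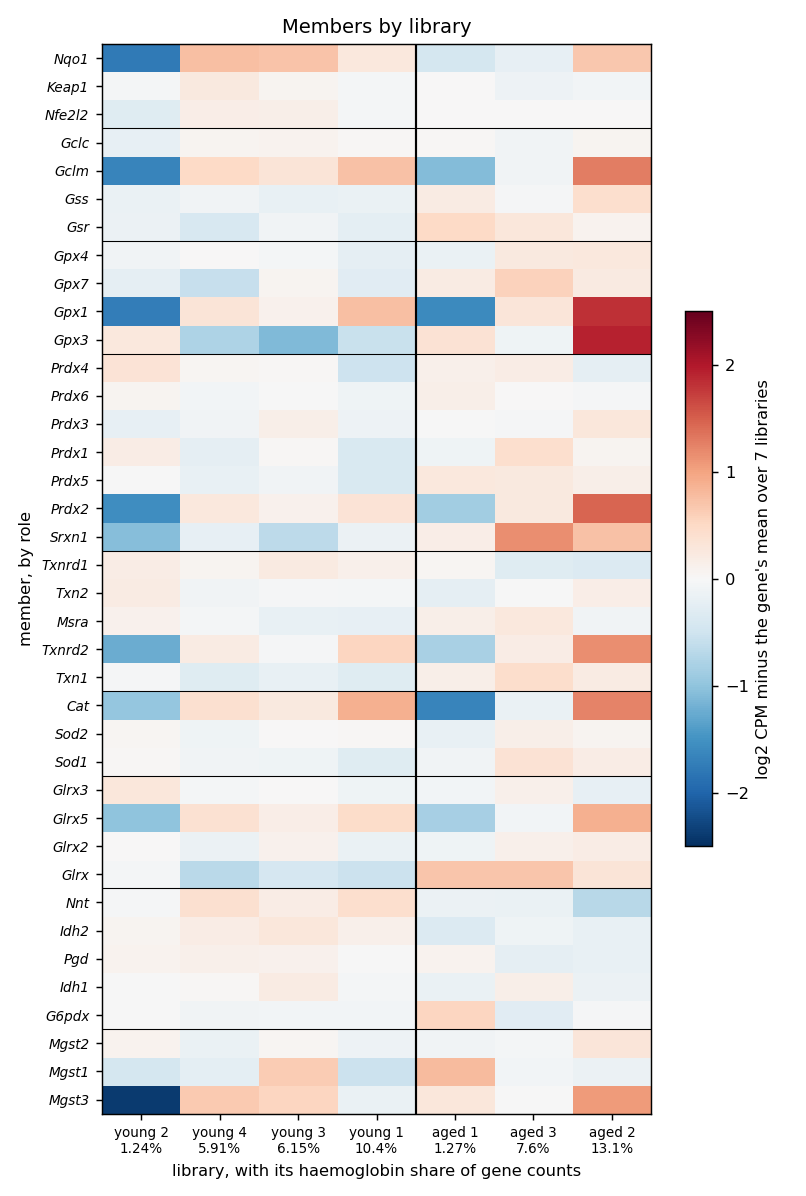
Log2 CPM of each of the 38 members (rows, by role) in each library (columns, by age and then by haemoglobin share), minus the gene's mean over the 7 libraries. The 6 members that follow haemoglobin run from blue to red within both ages, and most other members stay near white.

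For comparison between genes, levels were taken per kilobase over all annotated exons of a gene, from 1051 bases in Txn1 to 10008 in Sod2. A gene with annotated exons that these cells do not use can rank too low on this scale. Per kilobase of exon, Gpx1 was the highest member with 1134 CPM per kilobase in aged and 720.3 in young Tregs. It was the highest in each of the 7 libraries. Its aged libraries were at 222, 2357 and 822, so its aged mean depended on aged library 2. The aged libraries of Prdx2 were at 71.5, 356 and 155 and those of Cat at 35.04, 260 and 97.9, so the same holds for their aged means below. Prdx2 was at 194 and 126, Cat at 131 and 133, Txn1 at 109 and 78.8, Gpx4 at 87.2 and 75.1 and Prdx1 at 77.3 and 66.1 CPM per kilobase. Their order differed between libraries: in aged library 1 and young library 2, the libraries with the least haemoglobin, Txn1 was second, Prdx2 in position 3 and 7 and Cat in position 9 and 5. Glrx was at 13.5 CPM per kilobase in aged and 6.87 in young Tregs, in position 18, 23 and 20 of 38 in the aged and 28, 23, 27 and 28 in the young libraries. Srxn1 was at 3.68 and 1.58, in position 34, 33 and 29 in the aged and 35, 37, 38 and 36 in the young libraries.

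**Figure D5:**
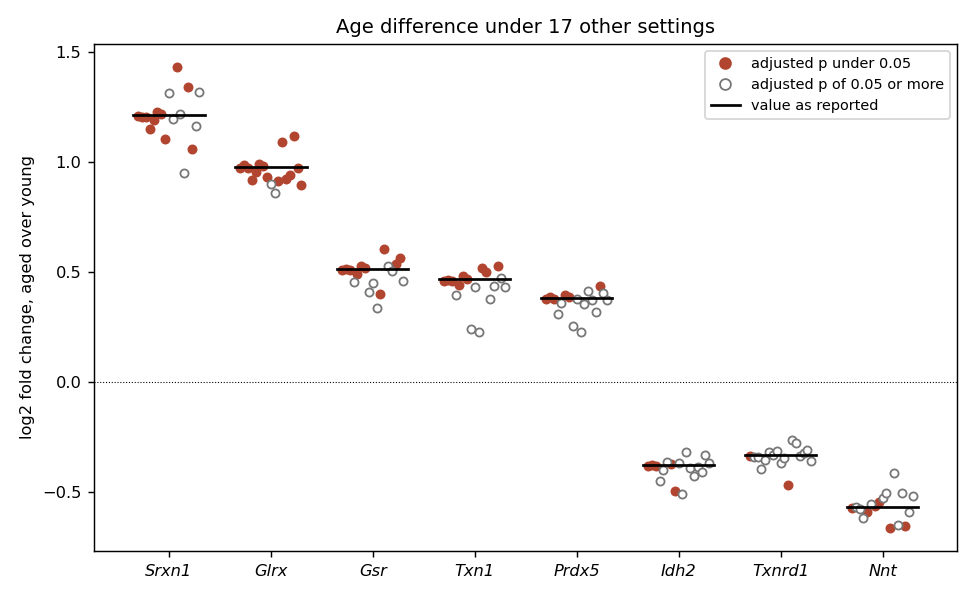
Log2 fold change of CPM, aged over young (y axis), for the 6 called members and for Txnrd1 and Nnt (x axis), under 17 other settings of the analysis. Filled points have an adjusted p under 0.05, open points do not, and the black bar is the value as reported; every point of these 8 genes stays on its side of 0.

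The direction of these 8 differences was the same under the 17 other settings, and the calls were not. Glrx was called in 15 of 17 settings, Srxn1 in 11, Gsr in 10, Txn1 in 9, Prdx5 in 6 and Idh2 in 5. Nnt was called in 6 and Txnrd1 in 2 of 17. Scaling by library size alone left Glrx and Srxn1 called. Without aged library 3 or young library 4, Glrx was the 1 called member; without young library 3 these were Glrx and Gsr, without young library 1 Glrx and Srxn1, and without aged library 2 Glrx, Gsr and Txn1. Without young library 2, the 5 reported rises were called again, with Nnt lower. Without aged library 1, the library with the most neutrophil and mitochondrial transcripts, Glrx, Srxn1, Gsr, Txn1 and Gpx4 were called higher and Txnrd1, Nnt and Pgd lower. Removing trends with GC content and gene length left Glrx and Srxn1 called higher and Idh2 and Nnt called lower.

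Genes around the members were taken from lists of relatives, described by counts beside the background shares of 9.8% and 6.94%. Among 16 tested glutathione S-transferases, which couple glutathione to electrophiles, 1 was called higher and 2 lower, with a median log2 fold change of 0.18. Gsta4, which clears the lipid peroxidation product 4-hydroxynonenal, was at 7.25, 9.97 and 8.70 CPM in aged and 20.01, 28.03, 20.1 and 19.4 CPM in young Tregs (-1.34, SE 0.186, adjusted p = 0.00297). Gsto1, an omega class transferase, was at 28.4, 29 and 26.4 CPM and 49.9, 57.8, 52.04 and 45.2 CPM (-0.88, SE 0.109, adjusted p = 0.00193). In both genes the groups were far apart, and both calls held in all 17 settings. Gstp3 was the called rise (0.79, SE 0.17, adjusted p = 0.0175), in a family whose near-identical copies can share reads, and its call held in 3 of 7 fits without a library.

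Of 23 tested partners and further targets of Nrf2, 1 was called higher and 1 lower (median -0.02). Slc7a11, the cystine importer that feeds glutathione synthesis, was at 1.83, 2.22 and 2.15 CPM in aged and 0.787, 0.771, 0.790 and 0.645 CPM in young Tregs (1.45, SE 0.258, adjusted p = 0.0083), a low level in both ages. Its call held in all 7 fits without a library. Bach2, a repressor that binds the same kind of element and is known to restrain effector programmes in T cells, was at 61.5, 37.5 and 55.5 CPM in aged and 127, 95.02, 131 and 117 CPM in young Tregs (-1.19, SE 0.186, adjusted p = 0.00503). Each aged library was under the lowest young library, and the call held in all 17 settings. None of 7 tested genes of the phagocyte NADPH oxidase, a source of superoxide, was called by edgeR (median -0.05), with 1 higher and 2 lower at an unadjusted p under 0.05, or by limma voom. DESeq2 called 1 of these 7 higher and 3 lower, where it called 14.3% of all genes higher and 13.1% lower.

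Of 31 tested relatives of thioredoxin, methionine sulfoxide reductases and selenoproteins, 6 were called higher and 3 lower (median -0.01). Txnip, which binds and inhibits thioredoxin and is known to respond to glucose, was at 396, 456 and 408 CPM in aged and 1059.6, 1210.1, 944 and 916 CPM in young Tregs (-1.30, SE 0.141, adjusted p = 0.00126). No aged library came near the young range, and the call held in all 17 settings. Sesn1, a stress-induced sestrin, was the next largest of the called falls (-0.71, SE 0.155, adjusted p = 0.0189), and its call held in 5 of 7 fits without a library. The largest called rises were of low genes: Sod3, the extracellular superoxide dismutase, at 1.92, 6.04 and 2.15 CPM in aged and 0.175, 1.33, 0.474 and 0.717 CPM in young Tregs (2.26, SE 0.607, adjusted p = 0.0379), and Selenom (1.59, SE 0.338, adjusted p = 0.0165). Young library 1 was below the detection limit for Sod3, and aged library 2 was far above the other aged libraries. The call of Sod3 held in 2 of 7 fits without a library, with adjusted p up to 0.124, and that of Selenom in 6 of 7. Of 15 tested genes of the pentose phosphate and folate pathways, malic enzyme and NAD kinases, which make NADPH or act beside the enzymes that do, 1 was called lower and none higher by edgeR (median -0.09), with 2 higher and 4 lower at an unadjusted p under 0.05. The called gene was Pgls, a lactonase of the pentose phosphate pathway that does not itself make NADPH (-0.32, SE 0.094, adjusted p = 0.0499). Its call held in 1 of 7 fits without a library. DESeq2, with the larger background shares just given, called 2 of the 15 higher and 4 lower. Limma voom, which called 9.39% of all genes higher and 7.03% lower, called none of the 15.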

How the data were processed

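RNA was extracted with Trizol from magnetically isolated CD4+CD25+ splenocytes and made into cDNA with SMART-Seq v4, which carries no molecular identifiers and does not mark strand, so overlapping genes cannot be told apart by strand. The authors deposited 1 file of read counts per gene for each of the 7 libraries (no columns of other samples were used), against mm10 per the submitters' processing notes. The aligner and counter are not given in the sources used here. Rows that name no gene (13.1% to 20.9% of reads) entered neither library sizes nor tests. The authors also deposited a table whose signal is the counts divided by 1 size factor per library. It was used for gene symbols. Where listed symbols differed from those of the table, genes were matched by Ensembl identifier.

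Counts were tested with edgeR 4.0.16 (R 4.3.3): TMM, filterByExpr by age, quasi-likelihood test of aged over young on all 7 libraries, Benjamini-Hochberg adjustment over 13904 genes, threshold 0.05, with log2 fold changes at edgeR's default prior count. Log2 CPM for the GC content offsets and the pairing check had a prior count of 2. The SE was obtained as log2 fold change divided by the square root of F. The study names limma. Here limma voom (limma 3.58.1) and DESeq2 1.42.0 were alternatives, with other scalings and filters, GC content and length offsets (GENCODE M21, 99.7% of genes), a replicate block and each library left out. P-values measure only the spread between these libraries, which may be partly technical. The haemoglobin term was added after the data had been seen, as the log2 percent of counts on haemoglobin genes. The tests were also run on simulated counts, and no result of those runs is used here.

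The members, lists and motifs were chosen with earlier results of these data known. Full statistics are given for called members, for Nfe2l2 and Keap1 and for members whose call changed under an alternative, and for the 2 largest called rises and falls of each list of relatives. Motif letters were searched on both strands of RefSeq promoter windows (GRCm38.p6). The study's methods give the young mice a somewhat higher age than the labels do, and the labels' age is used here.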

Additional observations from a re-analysis of the deposited data

How the results depend on the processing

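Over all 38 members and each alternative, 572 comparisons with the reported value kept direction and side of the threshold, 46 lost the call, 11 gained it and 55 changed sign, the latter all in members that were not called. Beside 5 members called higher and 1 called lower, library size alone gave 2 and 0 (960 and 875 of all genes), GC content and length offsets 2 and 2, at least 10 counts in every library 0 lower (814 of all genes), DESeq2 3 lower, mitochondrial, immunoglobulin and haemoglobin genes left out 2 lower (985), and the haemoglobin term 2 lower (1220). Leaving out each library in turn gave 1 to 5 members higher and 0 to 3 lower, and 783 to 1603 and 448 to 1455 genes in all. Over all genes, 1362 were higher and 965 lower, against 1203 and 1483 with GC content and length offsets, and DESeq2 called 1822 lower. Asking also for a log2 fold change of 1 or more in size left 1 of 6 called members.

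Libraries of the same replicate number in the labels did not deviate alike from the mean of their age (correlations of deviations -0.09, -0.29 and -0.14). The haemoglobin share differed within number 1 (1.27% aged, 10.4% young) and number 2 (13.1% aged, 1.24% young). The check therefore cannot exclude a pairing. With a replicate block in edgeR 0 members were called in either direction (6 higher and 3 lower at an unadjusted p under 0.05), and 202 and 90 genes in all. With the replicate block and GC content and length offsets together these were 0 and 0 members (3 and 2 at an unadjusted p under 0.05) and 177 and 107 genes. DESeq2 and limma voom, without a block, called 5 members higher and 3 and 1 lower.

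Nfe2l2 changed sign with RLE (-3.92e-05), library size alone (-0.063), no filter (-0.015), GC content and length offsets (-0.095) and these with the replicate block (-0.026). Glrx5 did so with library size alone (-0.036), GC content and length offsets (-0.026) and the haemoglobin term (-0.035). Gclc did so with library size alone (-0.062), no filter (-0.014), GC content and length offsets (-0.089) and these with the replicate block (-0.066). Prdx4 did so with library size alone (-0.034), the offsets (-0.12) and these with the block (-0.077), Sod2 with library size alone (-0.053), no filter (-0.0027) and the block (-0.018), and Nqo1 with limma voom (0.023) and the block (0.15). Mgst2 and Prdx3 changed sign with the offsets (-0.0096 and -0.055) and with these and the block (-0.053 and -0.043). Without 1 library the log2 fold changes ran from -0.080 to 0.066 (Nfe2l2), -0.72 to 0.53 (Gclm), -0.47 to 1.14 (Gpx1), -0.16 to 1.01 (Prdx2), -0.23 to 0.75 (Txnrd2), -1.01 to 0.42 (Cat) and -0.49 to 0.39 (Glrx5), and from -0.59 to 0.027 (Nqo1), -0.051 to 0.053 (Gclc), -0.098 to 0.17 (Prdx4), -0.13 to 0.064 (Txn2), -0.047 to 0.11 (Sod2), -0.17 to 0.0043 (Glrx3), -0.094 to 0.34 (G6pdx), -0.044 to 0.66 (Mgst1) and -0.034 to 0.17 (Mgst2). Without 1 library, 28 of 32 members that were not called moved by over 1.5 times or changed sign, and 0 of 6 called members did. Such a ratio moves easily where the reported value is near 0. The called members were selected in these same libraries for a change that was large against its spread. The contrast therefore gives no separate support for the calls. Aged library 2 was the omitted library at the low end for Gclm, Gpx1, Prdx2, Txnrd2, Cat, Glrx5, Nqo1, Txn2 and Mgst2. The cause of these shifts was not tested. Each member had at least 17 counts in each library, and intervals from counting error were not computed. For members with low counts, such as Gpx7 at 17 to 29 counts, counting error limits the precision beside the number of libraries.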
